A study of Mus musculus with 8 samples.

Results

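Double-stranded RNA recognition was followed across the arrays of a knockdown study in 8 genes: the sensors Ifih1 (MDA5), Ddx58 (RIG-I), Dhx58 (LGP2), Tlr3 and Zbp1, the adaptor Mavs, the kinase Eif2ak2 (PKR) and the RNA-editing enzyme Adar. They were chosen by name, as the probe sets annotated with these symbols, with earlier results of these data known. All 8 were found, each with 1 probe set, among 19505 genes. The cells were mesenchymal stromal cells from the inguinal fat pad of male FVB mice aged 12 months, so every group shares strain, sex, age and tissue. All cells received the lentiviral vector pLKO.1, which was empty (2 arrays), carried a scrambled hairpin (scramble, 2 arrays) or carried a hairpin against Irf7 (shIRF7, 4 arrays). No uninfected cells were analysed here, and the labels name no second hairpin against Irf7. The labels do not say whether replicates were separate cultures, animals or infections, so p-values measure only how far these arrays vary, and that variation may be technical. Biotin-labelled total RNA was hybridised to Affymetrix mouse arrays, and each value is the authors' log2 RMA value of a probe set.

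As background, double-stranded RNA is a sign of viral replication and also forms from a cell's own transcripts. RIG-I and MDA5 bind it in the cytosol and signal through Mavs on mitochondria, while TLR3 binds it in endosomes, and both routes lead to type I interferon. PKR halts translation by phosphorylating eIF2 alpha, Zbp1 can start necroptosis, and Adar edits adenosine to inosine in double-stranded RNA, which keeps the cell's own RNA from being sensed. Several of these genes are themselves induced by interferon, and IRF7 is a transcription factor of that response.

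The arrays gave these limits for all values below. Irf7, the targeted gene, measured 9.55 to 9.76 on the 4 control arrays and 4.42, 5.66, 6.47 and 6.79 in shIRF7 replicates 1 to 4 (log2 difference -3.79, SE 0.48, limma adjusted p = 0.0692). Over the 8 arrays the 95th percentile of 5222 negative control probe sets ranged from 7.93 to 8.72. A value under it is called near background here. Of all genes, 31.6% (shIRF7 replicate 2) to 36.8% (shIRF7 replicate 1) exceeded it, depending on the array. Irf7 exceeded it on all 4 controls and on 0 of 4 shIRF7 arrays, so the size of its difference can be understated. Of 12 listed stromal cell markers 10 were measured and 7 of them exceeded that percentile on all 8 arrays, among them Pdgfrb, Cd44, Itgb1 and Col1a1. Nt5e and Dpp4 exceeded it on none and Thy1 on 2 arrays. No marker of macrophages (8 measured), endothelial cells (6), adipocytes (5) or T and B cells (5) exceeded it on any array, and of 6 plasmacytoid dendritic cell markers only Tcf4 did. The mean of the stromal markers was 11.51 to 11.90 in the controls and 11.11 to 11.43 in shIRF7. At unadjusted limma p under 0.05, 3 of the 10 were lower (30%, against 4.1% of all genes) and 1 higher (10%, against 4.01%). The lower ones were Thy1 (log2 difference -2.15), Cd44 (-1.34) and Col1a1 (-0.88, every shIRF7 array below every control). The higher one was Vcam1 (0.67). None of them passed the adjusted threshold. The part of these markers in the results was not tested. In bulk RNA of this kind, fewer cells of a type and less RNA per cell cannot be told apart.

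Short sequences of interferon-response elements were looked up in RefSeq windows of assembly GRCm38.p6 (250 bases before to 50 bases after a transcript start), because 6 of the 8 genes were lower together in shIRF7. Windows were found for 6 of the 8 genes, all but Dhx58 and Zbp1. The motif searched was GAAANNGAAA on both strands, the core of the interferon-stimulated response element to which interferon regulatory factors bind. It was present in Ifih1, Ddx58 and Eif2ak2, once each and within the first transcribed bases. The shorter GAAANNGAA, which overlaps every such site, was present in the third of 3 Adar windows, at base 34 of the transcript and once more at the window's far upstream end. Ifih1 and Eif2ak2 each held 1 further match of the shorter motif. In each line the gene's strand is printed from 5′ to 3′ and capitals mark the motif.
Ifih1, GAAANNGAAA: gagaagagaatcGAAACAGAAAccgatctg
Eif2ak2, GAAANNGAAA: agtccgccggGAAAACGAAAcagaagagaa
Ddx58, GAAANNGAAA on the opposite strand: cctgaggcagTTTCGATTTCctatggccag
Adar, GAAANNGAA: ttttcaaggaaacGAAAGTGAActctgggg
These stretches lie at chr2:62646206-62646235 (minus strand), chr17:78882535-78882564 (minus strand), chr4:40239804-40239833 (minus strand) and chr3:89730738-89730767 (plus strand). Counting the first transcribed base as 1, the motifs begin at base 33 in Ifih1, 19 in Eif2ak2, 3 in Ddx58 and 34 in Adar. The longer motif occurred in 3.44% of all 32851 windows and the shorter in 8.56%. Counted by gene, over 27025 genes, the shares were 3.99% and 9.76%. Another motif, TTCNNNGAA, the element bound by STAT factors, reads the same on both strands. It occurred in 8.3% of windows (9.55% of genes), in the third Adar window and in that of Eif2ak2. None of the 3 motifs was in the windows of Mavs, Tlr3 or Irf7, which says only that these letters are not there. A match likewise says only that the letters are there, and binding of any factor was not tested. Adar, with 3 windows, had more room for a match than a gene with 1 window.

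In shIRF7 against both controls, Adar fell and was the only one of the 8 genes past the limma threshold (adjusted p under 0.05 over all genes). Ifih1, Dhx58, Eif2ak2, Tlr3 and Ddx58 were also lower on all 4 shIRF7 arrays than on all 4 controls, and missed the threshold. Mavs was higher on all 4, by a small amount that missed it too, and Zbp1 lay near background throughout. The share of all genes past the threshold was 0.0308% (6 genes, all lower). In 6 of the 8 genes every shIRF7 array was under every control, as in 2.8% of all genes, and in 1 of the 8 every one was over, as in 2.58%. The median log2 difference of the 8 was -1.36, and that of all genes 0.0017. At an unadjusted p under 0.05 in limma, 6 of the 8 were lower and 1 higher, against 4.1% and 4.01% of all genes. Because the 8 were chosen with earlier results of these data known, these contrasts with all genes are descriptive and not independent support.

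**Figure D1:**
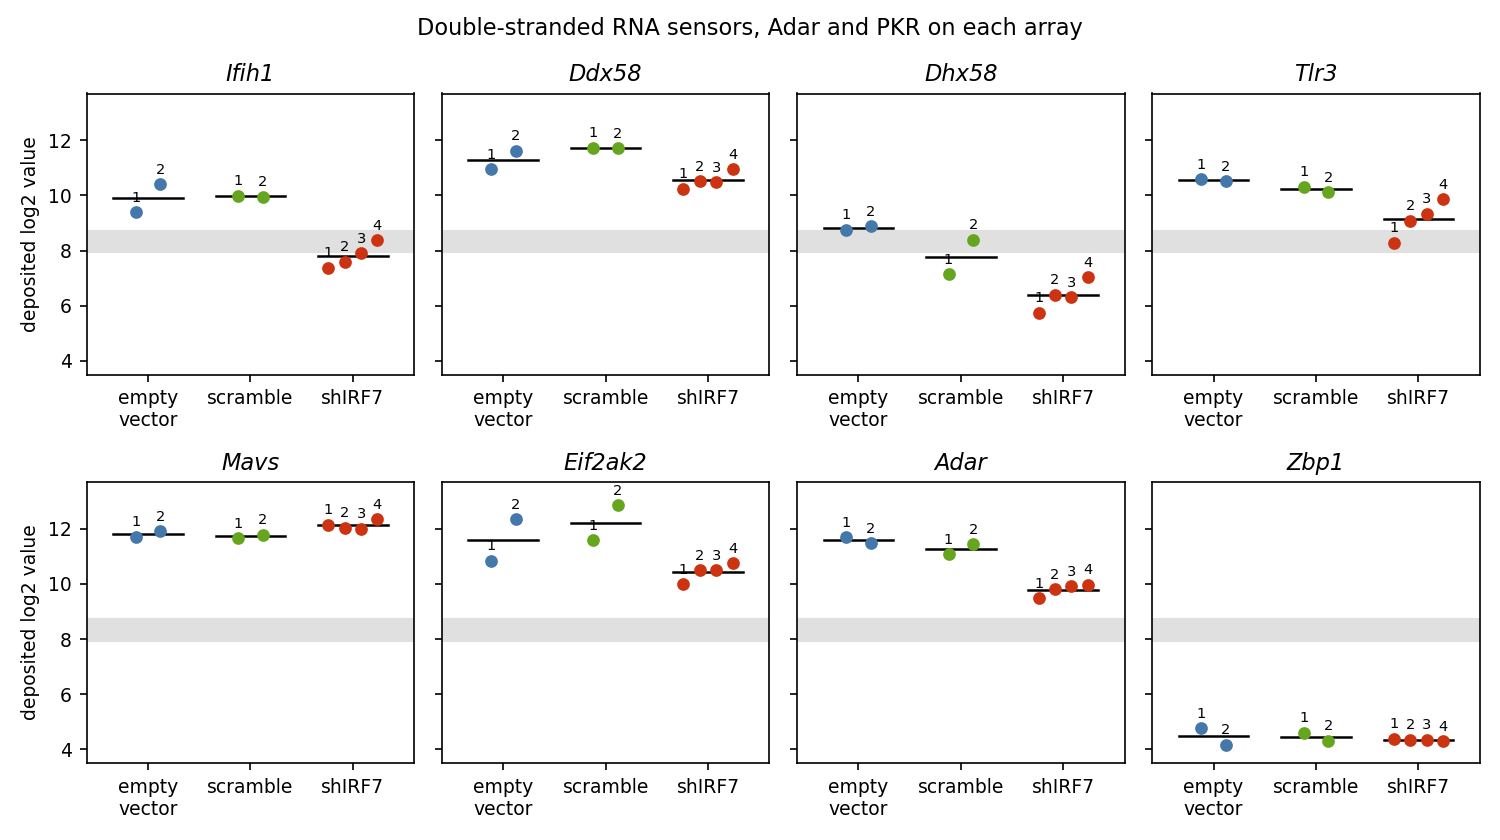
Deposited log2 values (vertical axis) of the 8 genes on each array, by group; numbers are replicate labels, black bars are group means, and the grey band spans the 95th percentile of negative controls over the 8 arrays. In 6 panels all shIRF7 points lie below all control points, in the Mavs panel they lie above, and Zbp1 lies under the band on every array.

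Adar, the editing enzyme, measured 11.69 and 11.49 with the empty vector, 11.08 and 11.45 with scramble, and 9.49, 9.81, 9.92 and 9.97 with the Irf7 hairpin, replicates 1 to 4. The groups were 1.11 apart at their nearest values, more than the whole range of either the controls (0.61) or shIRF7 (0.48). Control arrays averaged 11.43 ± 0.25 (SD, n = 4) and shIRF7 arrays 9.80 ± 0.22 (SD, n = 4). The log2 difference was -1.63 (SE 0.17, 95% interval -2.02 to -1.24, limma adjusted p = 0.0483). That is a 3.10-fold lower value, and 4 of 19505 genes had a smaller p. The difference was -1.90 within replicate number 1 and -1.66 within replicate number 2. Such values set shIRF7 replicates 1 and 2 against the controls of the same number, a pairing the labels do not give. They leave out shIRF7 replicates 3 and 4, here and for the genes below, and are descriptive only. The 1 probe set does not separate the transcripts that start at the 3 RefSeq windows. The call was narrow: when arrays were left out singly, Adar stayed past the threshold in 1 of 8 fits (without shIRF7 replicate 1, adjusted p = 0.0494), while its difference in them ran from -1.72 to -1.53. The adjusted p was 0.0618 without empty vector replicate 2, 0.0726 without shIRF7 replicate 4, 0.113 without empty vector replicate 1, 0.181 and 0.28 without scramble replicates 1 and 2, and 0.316 and 0.251 without shIRF7 replicates 2 and 3.

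Ifih1 encodes MDA5, which recognises long double-stranded RNA. Its log2 values were 9.39 and 10.40 with the empty vector, 9.99 and 9.95 with scramble, and 7.38, 7.60, 7.91 and 8.38 in shIRF7 replicates 1 to 4. The highest shIRF7 array was 1.01 below the lowest control. The log2 difference was -2.11 (SE 0.29, 95% interval -2.78 to -1.45, limma adjusted p = 0.0737), or 4.33-fold, and it was -2.31 and -2.57 within replicate numbers 1 and 2. All 4 controls but only 1 of 4 shIRF7 arrays exceeded the negative control percentile, so the size is uncertain on the low side. With both controls taken as 1 group of 4 the adjusted p was 0.0299, the only alternative setting in which Ifih1 passed the threshold. The adjusted p was 0.0976 with trend and robust variance and 0.391 with the replicate number as a block. When arrays were left out singly, the difference ran from -2.37 to -1.86.

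Dhx58 encodes LGP2, a relative of RIG-I and MDA5 that lacks their signalling domains and modulates them. It measured 8.76 and 8.88 with the empty vector, 7.15 and 8.39 with scramble, and 5.75, 6.41, 6.32 and 7.03 in shIRF7. Scramble replicate 1 stood apart from the other controls and lay only 0.12 above shIRF7 replicate 4. The log2 difference from both controls was -1.92 (SE 0.34, 95% interval -2.71 to -1.12, limma adjusted p = 0.174). None of the 4 shIRF7 arrays and 2 of the 4 controls exceeded the negative control percentile, so this difference rests partly on values near background. Within replicate numbers 1 and 2 it was -2.20 and -2.23.

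Ddx58 encodes RIG-I, which recognises the ends of viral RNA. Its values were 10.96 and 11.63 with the empty vector, 11.74 and 11.71 with scramble, and 10.24, 10.53, 10.48 and 10.96 in shIRF7. The groups barely separated: shIRF7 replicate 4 lay 0.0026 below empty vector replicate 1. The log2 difference was -0.96 (SE 0.21, 95% interval -1.45 to -0.46, limma adjusted p = 0.26), or 1.94-fold, and all 8 arrays exceeded the negative control percentile. The differences within replicate numbers 1 and 2 were -1.10 and -1.14.

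The 3 cytosolic helicases were also compared with each other within each array, a comparison chosen after their values were seen. The change of Ifih1 minus that of Ddx58 was -1.16 on the log2 scale (SE 0.15), and the shIRF7 arrays (-1.35 to -0.99 from the control mean of the within-array difference) did not overlap the controls (-0.18 to 0.34). A two-sided exact permutation test over the 8 arrays gave p = 0.0286, the smallest that 70 assignments allow, and 0.0858 after Benjamini-Hochberg adjustment over the 3 pairs. The change of Dhx58 differed from that of Ddx58 by -0.96 (SE 0.52, exact permutation p = 0.143, adjusted 0.214) and that of Ifih1 from Dhx58 by -0.20 (SE 0.47, exact permutation p = 0.743, adjusted 0.743). A pair already seen to be separated gives the smallest p by construction, so its p adds no evidence beyond the values. When only 1 of 3 pairs is separated, its adjusted p cannot go below 0.0858, so this pair could not pass. Values of Ifih1 and Dhx58 near background can understate their changes.

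Tlr3, the endosomal receptor, measured 10.58 and 10.52 with the empty vector, 10.33 and 10.11 with scramble, and 8.28, 9.08, 9.33 and 9.87 in shIRF7. The controls spanned 0.47 and the shIRF7 arrays 1.59, so the 4 shIRF7 arrays differed more among themselves than the controls did. The log2 difference was -1.24 (SE 0.32, 95% interval -1.98 to -0.51, limma adjusted p = 0.329), with -2.17 within replicate number 1 and -1.24 within replicate number 2. All 8 arrays exceeded the negative control percentile.

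Mavs, the adaptor that MDA5 and RIG-I share, did not go the way of Ifih1 and Ddx58. It measured 11.71 and 11.92 with the empty vector, 11.66 and 11.79 with scramble, and 12.16, 12.05, 12.01 and 12.34 in shIRF7. Every shIRF7 array was above every control, the nearest values 0.092 apart. Of all genes, 89.5% had a lower log2 difference from both controls than Mavs. Its log2 difference was 0.37 (SE 0.14, 95% interval 0.045 to 0.69, limma adjusted p = 0.559), or 1.29-fold, and it was 0.47 and 0.19 within replicate numbers 1 and 2.

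Eif2ak2 encodes PKR, the eIF2 alpha kinase that double-stranded RNA switches on. It varied widely in the controls, at 10.85 and 12.36 with the empty vector and 11.59 and 12.85 with scramble, while shIRF7 measured 9.99, 10.51, 10.51 and 10.76. In both control groups replicate 2 was higher than replicate 1, by 1.51 and 1.26, and empty vector replicate 1 lay only 0.091 above the highest shIRF7 array. Against both controls the log2 difference was -1.47 (SE 0.40, 95% interval -2.40 to -0.54, limma adjusted p = 0.368). It was -1.23 within replicate number 1 and -2.10 within replicate number 2. Medians of the negative control probe sets also differed by replicate number. They were 4.21 and 4.26 on the control arrays numbered 1 and 4.55 and 4.56 on those numbered 2, and the shIRF7 arrays with these numbers gave 4.18 and 4.56. This was not tested as a source of the spread of Eif2ak2.

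Zbp1, the sensor of left-handed nucleic acid, measured 4.17 to 4.78 in the controls and 4.29 to 4.39 in shIRF7. These values lay between the 40.5th and 63.1st percentiles of the negative controls, so Zbp1 was not above background and no fold is given. Its log2 difference was -0.12 (95% interval -0.51 to 0.27, limma adjusted p = 0.918).

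Against each control alone the directions were the same for all 8 genes and 0 of the 8 passed the limma threshold. Against scramble, which shares the hairpin form, 1 gene of 19505 passed (0.00513%), and 6 of the 8 genes were lower and Mavs higher at an unadjusted p under 0.05 (3.27% and 2.87% of all genes). Against the empty vector 0 genes passed (0%), with 6 of the 8 lower and 0 higher at an unadjusted p under 0.05 (3.3% and 2.54% of all genes). Both comparisons use the same 4 shIRF7 arrays and are not independent. The log2 difference of Adar was -1.47 against scramble and -1.79 against the empty vector (limma adjusted p = 0.238 and 0.103), and that of Ifih1 was -2.15 and -2.08 (0.239 and 0.286). Dhx58 differed by -1.40 from scramble, where no array of either group exceeded the negative control percentile, and by -2.44 from the empty vector. Eif2ak2 differed by -1.78 and -1.16, Ddx58 by -1.17 and -0.74, and Tlr3 by -1.08 and -1.41. Mavs differed by 0.41 and 0.32. Single control arrays moved several of these values. Against the empty vector, Eif2ak2 was -1.92 and Ddx58 -1.08 without empty vector replicate 1, and both were -0.41 without empty vector replicate 2. Against scramble, Dhx58 was -0.77 and Eif2ak2 -1.15 without scramble replicate 2.

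Scramble against the empty vector shows how far these genes moved between controls. None of the 8 passed in limma (0 of all genes, 0%), and 0 of the 8 had an unadjusted p under 0.05, against 1.93% of all genes. Dhx58 differed by -1.05 (SE 0.48, 95% interval -2.17 to 0.077), Eif2ak2 by 0.61 (SE 0.56) and Ddx58 by 0.43 (SE 0.30). Leaving out 1 array moved Dhx58 to between -1.67 (without scramble replicate 2) and -0.43 (without scramble replicate 1), Eif2ak2 to between -0.14 and 1.37 (without empty vector replicates 1 and 2), and Ddx58 to between 0.090 and 0.76 (the same 2 arrays). With 2 arrays a group these intervals are wide and do not show that the controls were alike.

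**Figure D2:**
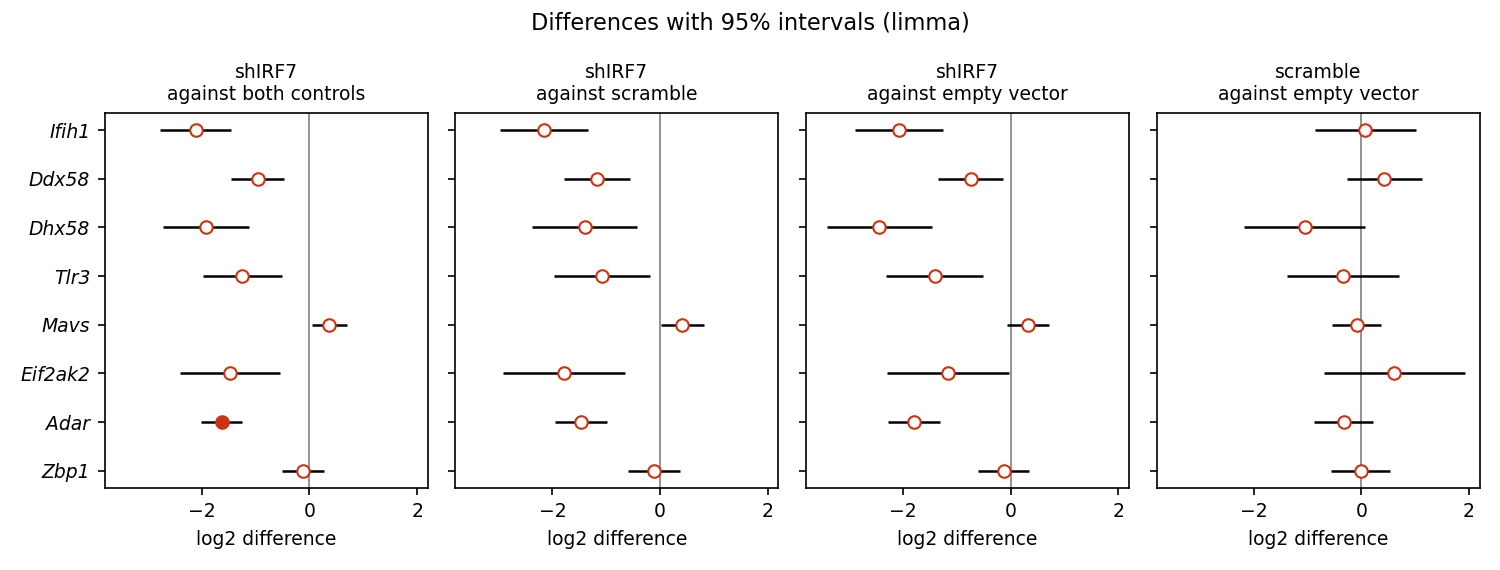
Log2 differences (horizontal axis) with 95% limma intervals for the 8 genes in 4 comparisons; a filled circle marks an adjusted p under 0.05. Only Adar against both controls is filled, at -1.63, and in the panel of scramble against the empty vector all 8 intervals include 0.

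Among the 4 shIRF7 arrays the 6 lower genes shared an order. It was picked out after the values were seen. The shares of all genes given beside it are therefore descriptive and not independent support. In all 6 (Ifih1, Ddx58, Dhx58, Tlr3, Eif2ak2 and Adar) replicate 1 was lowest and replicate 4 highest, as it was for Irf7, which deviated from the control mean by -5.20 in replicate 1 and -2.83 in replicate 4. Of the 6, Tlr3 had the widest spread, with deviations of -2.10, -1.31, -1.05 and -0.52 in replicates 1 to 4, and Adar the narrowest, with -1.94, -1.62, -1.51 and -1.45. Over all genes 8.55% had replicate 1 lowest and replicate 4 highest, and so did 9.14% of the 547 genes whose shIRF7 values lay below all controls. Ifih1, Tlr3 and Adar matched the full order of Irf7 over the 4 arrays, as did 4.44% of all genes. All 4 shIRF7 values of Irf7 and Dhx58 and 3 of 4 of Ifih1 were near background, so their order and deviations there are uncertain. Those of Ddx58, Tlr3, Eif2ak2 and Adar were above it on all 4 arrays. With 4 arrays no correlation is given, and the genes are not independent of each other.

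**Figure D3:**
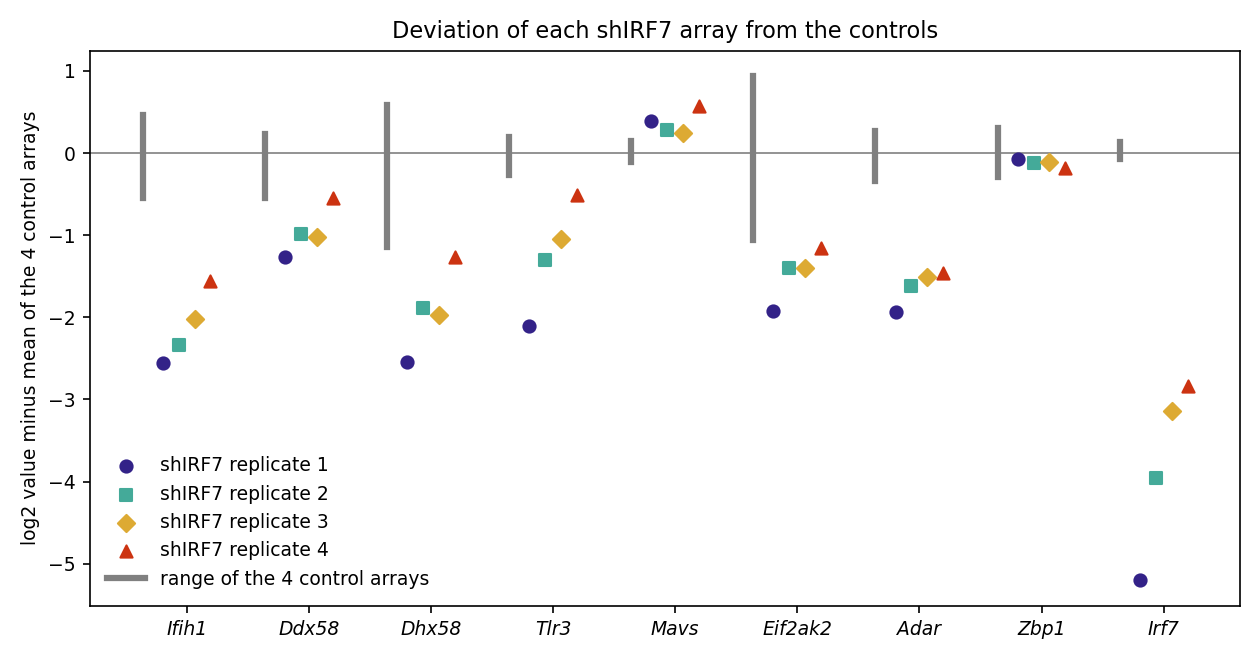
Log2 value on each shIRF7 array minus the mean of the 4 control arrays (vertical axis) for the 8 genes and Irf7; grey bars span the 4 controls. For the 6 lower genes and Irf7, replicate 1 is the lowest and replicate 4 the highest of the 4 points, and Mavs lies above its control bar.

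Other genes of these pathways were followed by 6 lists of 110 genes, of which 103 were measured. None passed the limma threshold in shIRF7 against both controls, in either direction, and at an unadjusted p under 0.05 in limma 8 were lower (7.77%, against 4.1% of all genes) and 5 higher (4.85%, against 4.01%). Every shIRF7 array was under every control in 6 of the 103 (5.83%, against 2.8% of all genes) and over in 2 (1.94%, against 2.58%), and the median difference was -0.037. On all 8 arrays 26 of the 103 were near background, and 61 were above it. Of all genes, 31.6% to 36.8% were above it on a single array.

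Partners of the cytosolic helicases had a median of 0.045 over 34 measured genes. At an unadjusted limma p under 0.05, 2 were lower (5.88%, against 4.1% of all genes) and 2 higher (5.88%, against 4.01%). Trim25, a ubiquitin ligase that activates RIG-I, was 10.32 in the controls and 9.49 in shIRF7 (log2 difference -0.83, SE 0.18, limma adjusted p = 0.258), with every shIRF7 array below every control. Sike1, a suppressor of the kinases that phosphorylate IRF3, was above every control (0.89, SE 0.21, adjusted p = 0.288), and Pqbp1, a nucleic acid sensor cofactor, differed by 0.59. Genes of TLR3 signalling had a median of 0.038 over 12, and 0 had an unadjusted p under 0.05. Unc93b1, which carries Toll-like receptors to endosomes, was near background on all 8 arrays, so its difference of 0.76 cannot be sized. Src differed by -0.62. Ticam1, the adaptor of TLR3, differed by 0.57, with -0.37 within replicate number 1 and 1.13 within replicate number 2.

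Genes around PKR and eIF2 alpha had a median of -0.21 over 20. At an unadjusted limma p under 0.05, 2 were lower (10%, against 4.1% of all genes) and 1 higher (5%, against 4.01%). G3bp1, a stress granule protein, differed by -1.02 (SE 0.60), but by 0.83 within replicate number 1 and -2.46 within replicate number 2. Trib3 differed by -0.91 (SE 0.32, limma adjusted p = 0.537) and Eif2b2, a subunit of the eIF2 exchange factor, by 0.88 (SE 0.28, adjusted p = 0.484). The other 3 kinases of eIF2 alpha, named here as relatives of PKR after their values were seen, differed by 0.25 (Eif2ak1), 0.25 (Eif2ak3) and -0.30 (Eif2ak4), with limma adjusted p of 0.802, 0.78 and 0.833.

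RNA-editing and other double-stranded RNA-binding genes had a median of -0.23 over 18. At an unadjusted limma p under 0.05, 1 gene was lower (5.56%, against 4.1% of all genes). That gene was Sidt2, a lysosomal RNA transporter, which differed by -1.07 (SE 0.31, limma adjusted p = 0.412) and lay below every control on all 4 shIRF7 arrays. Aimp2 differed by -0.69 (0.97 and -2.09 within replicate numbers 1 and 2) and Dicer1, above the negative control percentile on only 2 arrays, by -0.54. Adarb1, the other catalytically active editing enzyme and also named after its value was seen, measured 9.81 in the controls and 10.11 in shIRF7 (0.30, SE 0.30, adjusted p = 0.878).

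Genes of necroptosis had a median of -0.0048 over 10. At an unadjusted limma p under 0.05, 2 were higher (20%, against 4.01% of all genes). Casp6 differed by 1.04 (SE 0.35, -0.24 and 1.75 within replicate numbers 1 and 2) and Fadd, a death-domain adaptor, by 0.78 (SE 0.20, limma adjusted p = 0.336, above every control on all 4 arrays). Casp8 differed by 0.28, with 0.70 and -0.35 within replicate numbers 1 and 2. Of 9 products of the sensors' signalling, 8 exceeded the negative control percentile on no array, so their differences cannot be sized. The median of the 9 was -0.29. At unadjusted limma p under 0.05, 3 were lower (33.3%, against 4.1% of all genes) and 0 higher, each of the lower ones near background. Every shIRF7 array was under every control in 2 (22.2%, against 2.8% of all genes). Ccl5, a chemokine, measured 5.50 to 6.46 in the controls and 4.17 to 5.08 in shIRF7 (-1.36, SE 0.28, adjusted p = 0.21). Il6 differed by -0.96 (0.79 and -1.64 within replicate numbers 1 and 2) and Ifnl3 by -0.35. Ifnb1, named outside the rule as the interferon these sensors induce, was 3.52 in the controls and 3.55 in shIRF7, near background on every array.

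**Figure D4:**
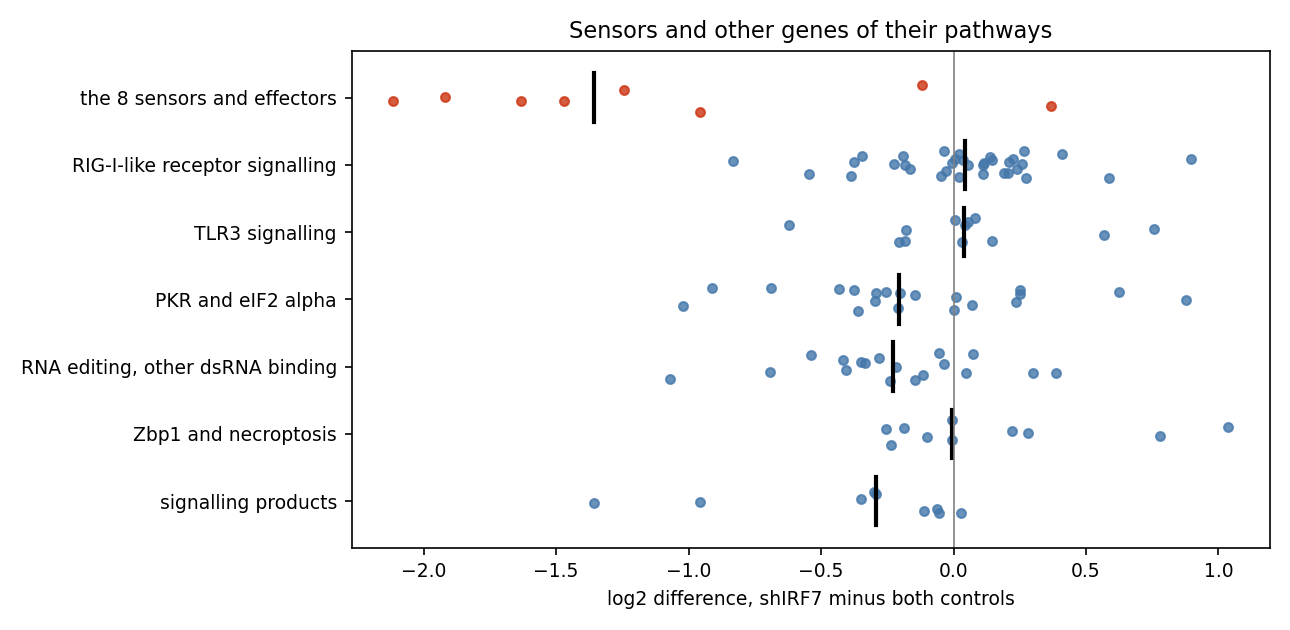
Log2 difference of shIRF7 from both controls (horizontal axis), 1 point per gene, for the 8 genes (red) and the 6 pathway lists (blue); black bars are medians and vertical scatter has no meaning. The median of the 8 genes is -1.36, while those of the 6 lists lie between -0.29 and 0.045.

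For each gene whose shIRF7 values did not overlap the controls, the 3 most similar profiles were taken as the smallest root mean square distance, in log2 units, between deviations from the control mean over the 8 arrays. Adar was nearest to Trim12a (0.267), Mx2 (0.277) and Mamld1 (0.302), and Dhx58 to Mx2 (0.364), Adar (0.454) and Oas1b (0.484). For Ifih1 these were Erlin2 (0.291), Rnf141 (0.414) and Tap1 (0.421), and for Tlr3 they were H2-D1 (0.205), Sp100 (0.235) and Irf9 (0.241). Eif2ak2 was nearest to Slfn8 (0.271), Lgals3bp (0.323) and Asb13 (0.36), and Ddx58 to Parp14 (0.239), Speg (0.241) and H2-Q4 (0.244). Mavs, with its small difference, had closer neighbours in Chrm1 (0.0896), Slc5a8 (0.0921) and Nop10 (0.0924). Adar was the only one of the 8 genes among the 3 nearest of another. Oas1b, H2-D1 and H2-Q4 have close relatives whose probes may not separate them.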

How the data were processed

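Total RNA of 8 samples was profiled on Affymetrix mouse arrays. Per the submitters' processing notes, the authors made the deposited log2 values with RMA in Affymetrix Expression Console 1.4.1.46. Their genome build was not given in the sources used here. No value column was left out (0 columns). Of 28846 probe sets 19572 had 1 gene symbol. For 55 genes with several, the probe set with the highest mean was kept, which left 19505 genes. Under R 4.3.3 these went into limma 3.58.1 (lmFit, eBayes, a mean per group over all 8 arrays), with Benjamini-Hochberg over all genes and a threshold of 0.05; every adjusted p in the text is from this fit unless another test is named. "Both controls" is the equally weighted mean of empty vector and scramble. No set test was run. The fit was tested on simulated data. Members, lists, alternatives and motifs were chosen with earlier results of these data known. The motifs, the helicase pairs and the order of the shIRF7 arrays were chosen after seeing values. Named genes were the 8, Irf7, the 3 largest differences per pathway list and the 3 nearest profiles per non-overlapping gene, predicted genes, clones, small RNAs and receptor families left out. Cell type markers, the other eIF2 alpha kinases, Adarb1 and Ifnb1 are named outside that rule. Alternatives were a filter on dim genes, trend and robust variance, cyclic loess, other handling of probe sets, other control groupings, the replicate number as a block, averaging shIRF7 replicates 2 and 3, and leaving out each array. The number of arrays limits the precision.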

Additional observations from a re-analysis of the deposited data

How the results depend on the processing

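The count of the 8 genes past the limma threshold in shIRF7 against both controls, 1 (Adar), was 2 with both controls as 1 group (Adar and Ifih1). It was 0 with only genes above the median level (Adar adjusted p = 0.0517), with trend and robust variance (0.0708), with shIRF7 replicates 2 and 3 averaged (0.284), which were the closest pair of arrays, and with the replicate block (0.486). It ran from 0 to 1 over the 8 fits that left out 1 array. The counts of the other comparisons and of the pathway genes stayed at 0 throughout. Irf7 passed with both controls as 1 group (-3.79, adjusted p = 0.0299) and without shIRF7 replicate 1 (-3.31, adjusted p = 0.0254), with -4.10 to -3.31 over the fits that left out 1 array. The count over all genes, 6, was 28 with both controls as 1 group or without shIRF7 replicate 1, and 3 with trend and robust variance. It was 0 with the block, with the averaged pair, and without either scramble array or shIRF7 replicate 2 or 3. Leaving out empty vector replicate 2 gave 2, and leaving out shIRF7 replicate 4 gave 3.

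Deviations of genes from the group means correlated by replicate number between the controls (0.757) but not between controls and shIRF7 (-0.31 to -0.161). Negative control medians nevertheless followed the number in all 3 groups. Closeness of 2 arrays was measured by the SD of their difference over all genes. It was 0.322 for shIRF7 replicates 2 and 3, and 0.325 for empty vector replicate 2 and scramble replicate 2. Empty vector replicate 1 and scramble replicate 1 gave 0.554. Within groups, the 2 empty vector arrays gave 0.917 and the 2 scramble arrays 0.646. Control arrays were not averaged in any setting. The labels do not say that the numbers pair the samples, so the main fit did not pair them. Differences given within a replicate number are descriptive only. With the replicate block the difference of Adar was -1.78 and that of Ifih1 -2.44 (adjusted p = 0.391).

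Signs turned only in differences that did not pass. When 1 array was left out, Zbp1 ran from -0.27 to 0.029 against both controls (above 0 without empty vector replicate 1), from -0.43 to 0.17 against the empty vector and from -0.26 to 0.034 against scramble. In scramble against the empty vector such fits gave Zbp1 -0.31 to 0.29, Ifih1 -0.43 to 0.58, Eif2ak2 -0.14 to 1.37 (also -0.016) and Mavs -0.19 to 0.017, and cyclic loess gave Zbp1 0.023. Zbp1 gave no value with only genes above the median level. The cause of these changes was not tested.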
